A study of Vernicia fordii with 6 samples.

Results

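Cytokinins are adenine-derived hormones that promote cell division and keep meristems active, and in flowers they are known to favour the growth of the gynoecium. Isopentenyltransferases (IPT) start their synthesis, cytokinin hydroxylases make the zeatin forms, LOG enzymes release the active base, and cytokinin dehydrogenases (CKX) destroy it. The hormone is perceived by histidine kinases, which pass a phosphate through phosphotransfer proteins (AHP) to response regulators in the nucleus. Type-B response regulators switch on target genes, among them the type-A response regulators, which damp the response. In the sex determination of other plants the pathway has a known place: a homolog of ARR17 acts as the sex switch of poplars, and a type-C response regulator represses carpels in kiwifruit.

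The unigenes described here were all those whose SwissProt match named cytokinin, zeatin, an isopentenyltransferase, a histidine kinase, a histidine-containing phosphotransfer protein or a two-component response regulator. Pseudo-response regulators (those named "regulator-like") were left out. The rule took 67 of the 56065 unigenes of tung tree (Vernicia fordii), and they matched 43 different proteins, so that 41 of them shared a protein with another unigene of the group. A gene name here is the name of the best matching protein, in 58 of the 67 from Arabidopsis. Unigenes sharing a name can be copies or pieces of 1 gene, and 11 of the 67 shared their best match in the NR protein database with another of them.

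The data were RNA-seq libraries of flower buds at developmental stage 7, the stage at which male and female flowers of this monoecious tree diverge, with 3 samples of male and 3 of female flowers. All came from trees of the cultivar Duisuitong labelled 4 years old, and each sample pooled many flowers, with both sexes collected from the same plant. The reads counted per library numbered between 11467832 (female replicate 3) and 40385019 (female replicate 2), and after scaling female replicate 3 had an effective total of 3648171, the least of the 6. Floral organ identity genes marked the tissue: 13 of 13 unigenes of that list had reads in 5 libraries and 12 in female replicate 3. Expressed as reads per 1000000 (CPM), unigenes named for pollen, anthers or tapetum, together with exopolygalacturonases, summed to between 1173 and 1659 CPM in male and between 187 and 361 CPM in female samples, between 25 and 30 of the 31 had reads in each library, and 7 of the 24 tested were called, all higher in male flowers, where 1.56% of all unigenes tested were. Rubisco small subunit and chlorophyll-binding protein unigenes summed to 4030, 1756 and 3718 CPM in male and to 822, 1198 and 9654 CPM in female samples. The part of these cell types and libraries in the results was not tested, and in whole buds fewer cells of a type and less RNA per cell cannot be told apart.

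Levels are given as scaled RPKM, the reads per kilobase of unigene and per 1000000 reads of a library's TMM-scaled total, which allows levels of different unigenes to be compared, and CPM is the same without division by length. Where 3 values are given for a sex, they stand in the order of replicates 1, 2 and 3. TMM scaling raised the values of female replicate 3 the most (factor 0.319). The orders and overlaps of samples given below hold for scaled values. On library totals alone, most unigenes described as having all female samples above the male ones overlap, and only the AHP1 unigene contig_15553 still separates. Of those described with all male samples above, CKX3, AHP5, ARR18 and the adenosine kinase ADK2 (contig_3251) also overlap. Differences are log2 values, male minus female, from edgeR's quasi-likelihood test over the 29327 unigenes that passed its filter on low counts. Calls required an adjusted p (Benjamini-Hochberg) below 0.05 together with a difference of 2-fold or more. Of the 67 unigenes, 48 passed the filter, and each of the other 19 had between 10 and 169 reads over all libraries.

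None of the 48 was called, where 1.70% of all unigenes tested were. At an unadjusted p under 0.05 there were 13, of which 5 lay higher in the male and 8 in the female group, against 5.75% and 7.42% of all unigenes tested. DESeq2 called 5, the 2 CKX6 unigenes, 1 AHP1, 1 ARR9 and 1 LOGL2 unigene, where it called 4.01% of the 43807 unigenes it gave an adjusted p, and limma on log2 RPKM called none. Without female replicate 3, edgeR called 3, the CKX6 unigene contig_24157, CKX7 and the ARR9 unigene contig_14647, with a background of 2.62% of the unigenes tested in that setting. It called none without any one of the other 5 libraries, with backgrounds of 2.0%, 1.10% and 0.992% without male replicates 1, 2 and 3, and 0.999% and 0.906% without female replicates 1 and 2. Over all alternatives tried, the adjusted p of the 6 unigenes called in any of them ran from 0.00210 to 0.99999. The median log2 difference of the 48 was -0.22 (-3.41 to 2.94), beside -0.09 over all unigenes tested. After TMM scaling, all male samples lay above all female samples in 7 of them, against 10.4% of all unigenes tested. In 10 the reverse held, against 9.06%. On library totals alone, only the AHP1 unigene contig_15553 of these 10 still separated the sexes.

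**Figure D1:**
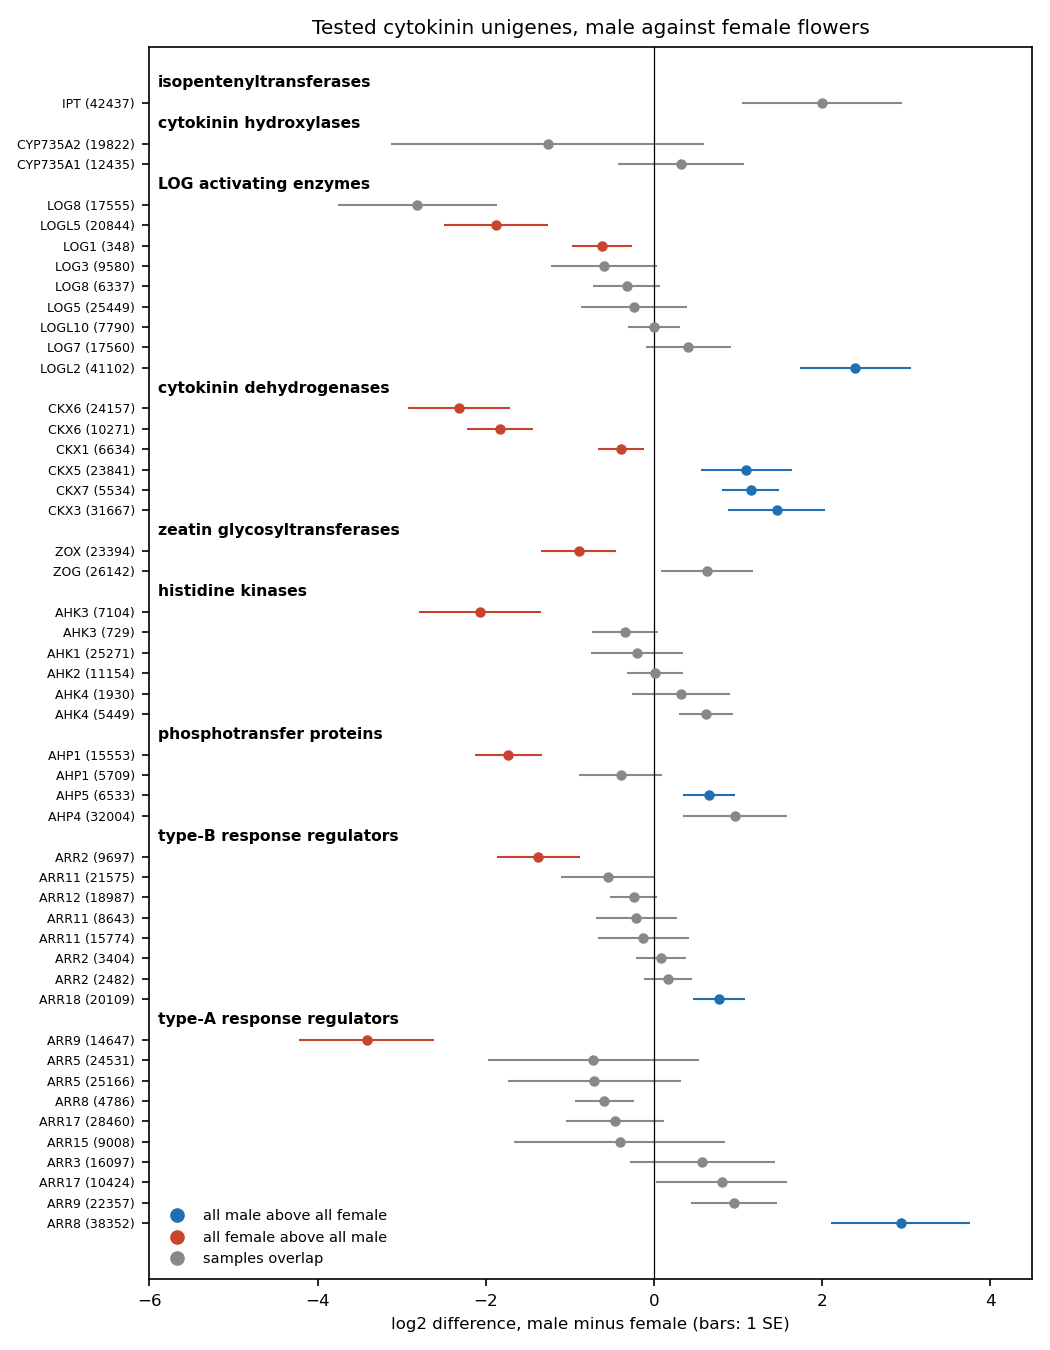
Log2 difference, male minus female, of each of the 48 tested cytokinin unigenes, grouped by role, with the number of the contig in brackets; bars show 1 SE. Blue and red mark unigenes whose 3 samples of one sex all lay above those of the other after TMM scaling, grey the rest. The values run from -3.41 for the ARR9 unigene contig_14647 to 2.94 for the ARR8 unigene contig_38352, and in the cytokinin dehydrogenases none is grey.

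The isopentenyltransferases, which catalyse the first step of synthesis, were at the lower end of detection. The adenylate isopentenyltransferase unigene contig_42437, named after the hop enzyme, had a scaled RPKM of 1.48, 0.370 and 1.201 in male samples. In the female samples it had 0.474, 0.0862 and 0, from 25, 6 and 0 reads. The lowest male sample lay below the highest female sample, and the log2 difference of 2.01 (SE 0.95) had an edgeR adjusted p of 0.418, and became 3.64 without female replicate 1. The IPT5 unigene contig_50149 had 0, 4 and 15 reads in male samples and none in any female library. Thus 15 of its 19 reads came from male replicate 3. Its NR match is a transfer RNA isopentenyltransferase of castor bean, a related enzyme that modifies transfer RNA. The second hop-like unigene (contig_42436) had 22 reads in all, and neither it nor IPT5 passed the filter.

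The cytokinin hydroxylases, cytochrome P450 enzymes that turn isopentenyl-type into zeatin-type cytokinins in Arabidopsis, overlapped between the sexes. The CYP735A1 unigene contig_12435 had a scaled RPKM of 6.53, 1.08 and 1.17 in male and 3.24, 1.68 and 1.99 in female samples. The highest value of each sex was that of replicate 1. The CYP735A2 unigene contig_19822 had 0, 9 and 12 male and 23, 0 and 15 female reads, too few to order the sexes.

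LOG enzymes cleave the ribose phosphate from cytokinin nucleotides and so yield the active hormone. There were 11 LOG unigenes, of which 9 were tested, and 1 at an unadjusted p under 0.05 was higher in male and 2 in female flowers. Their median log2 difference was -0.32 (-2.81 to 2.40). Summed over the 11, LOG reads made 31.7 ± 0.223 CPM (SD, n = 3) in the male and 41.8 ± 5.39 CPM in the female group. After TMM scaling no female sample was as low as a male one. On library totals alone, female replicate 3 had the lowest LOG sum of all libraries. The 3 with the highest mean CPM were LOG1, LOG8 and LOGL10, and none of these had an unadjusted p under 0.05. LOGL10 (contig_7790) had a scaled RPKM of 5.23 ± 0.282 (SD, n = 3) in male and 5.25 ± 0.553 (SD, n = 3) in female flowers (log2 difference 0.00, SE 0.31). LOG8 (contig_6337) had 8.64 ± 2.02 in male and 10.98 ± 4.81 in female flowers. Female replicate 3 (16.4, from 69 reads) was the highest of all after scaling, but the lowest of all on library totals alone. Without that library the log2 difference of LOG8 turned from -0.32 to 0.21. LOG1 (contig_348) lay between 4.67 and 5.72 in male and between 6.12 and 10.9 in female samples, which did not overlap after TMM scaling. Its log2 difference was -0.62 (SE 0.36, edgeR adjusted p = 0.501). Female replicate 3, the highest of all after scaling, was here too the lowest of all on library totals alone.

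The LOG unigenes at an unadjusted p under 0.05 were 3 others. A second LOG8 unigene (contig_17555, 303 bp long) had a scaled RPKM of 6.04, 1.30 and 0.535 in male samples. In the female samples it had 19.6, 27.9 and 4.52, the last from 5 reads. Male replicate 1 lay above female replicate 3, and the log2 difference of -2.81 (SE 0.94) had an edgeR adjusted p of 0.274, and became -4.05 without male replicate 1. LOGL5 (contig_20844), named after a rice enzyme, had 3.14, 0.859 and 2.66 in male and 10.3, 7.48 and 5.39 in female samples. Its female samples all lay above the male ones after TMM scaling, with a log2 difference of -1.88 (SE 0.62, edgeR adjusted p = 0.267). On library totals alone, its female replicate 3 lay below male replicates 1 and 3. In the other direction, LOGL2 (contig_41102), also named after a rice enzyme, had 2.92, 3.83 and 3.55 in male and 0.877, 0.595 and 0 in female samples. Its log2 difference was 2.40 (SE 0.66, edgeR adjusted p = 0.182), and DESeq2 called it with an adjusted p of 0.0351. It rested on 100 reads.

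**Figure D2:**
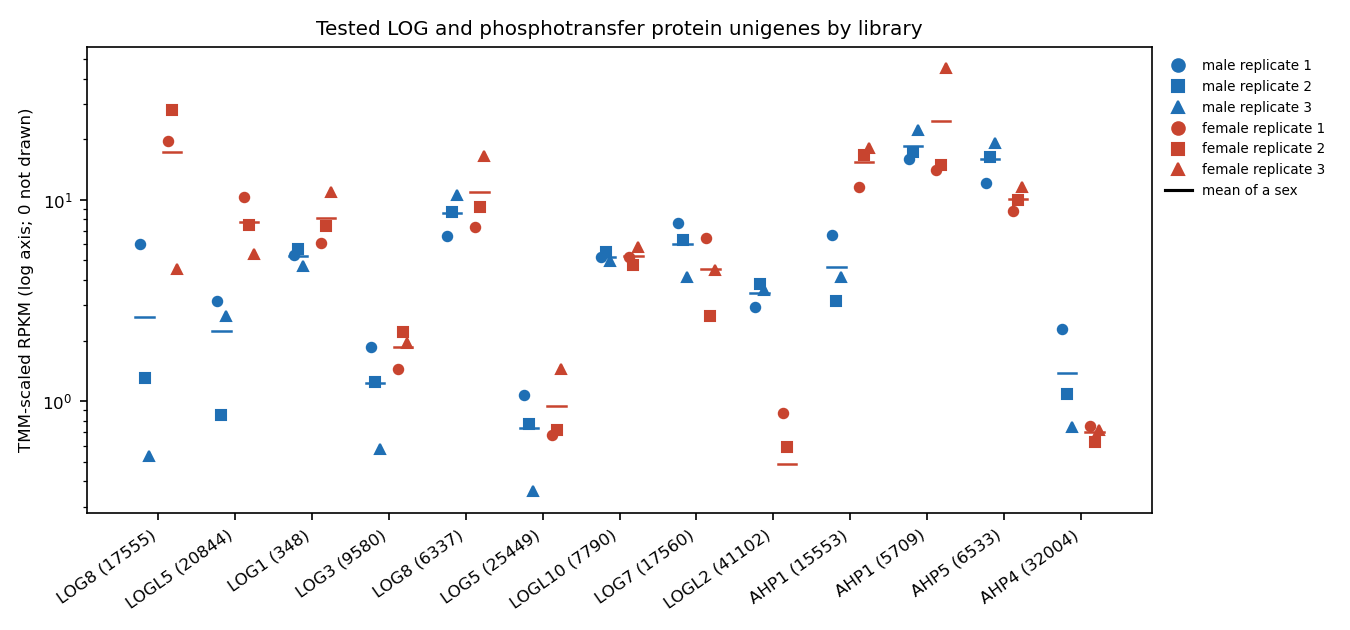
Scaled RPKM (log axis) of the 9 tested LOG and 4 tested phosphotransfer protein unigenes in each library; circles, squares and triangles are replicates 1, 2 and 3, blue male and red female, lines the mean of a sex, and the value of 0 (LOGL2, female replicate 3) is not drawn. LOGL10 has nearly the same mean in both sexes (5.23 and 5.25). At these scaled levels LOGL5 and the AHP1 unigene contig_15553 lie higher in all female samples and LOGL2 in all male samples.

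Cytokinin dehydrogenases oxidise the side chain of the hormone and end its activity, and in Arabidopsis the family members act in different compartments of the cell. After TMM scaling, the sexes did not overlap in any of the 6 tested CKX unigenes, 3 with the male and 3 with the female samples above. Of all unigenes tested, 19.4% did not overlap. This separation depended in part on the scaling. On library totals alone, female replicate 3 lay below male replicate 1 in CKX1 and both CKX6 unigenes, and CKX3 also overlapped. CKX7 and CKX5 (contig_23841) still separated the sexes. No CKX unigene was called by edgeR, with adjusted p values from 0.0857 to 0.589, and 4 had an unadjusted p under 0.05, 2 in each direction. After TMM scaling, the sum of the 7 CKX unigenes was 69.2 ± 3.17 CPM (SD, n = 3) in the male and 72.8 ± 1.38 CPM in the female group. On library totals alone, the sums were highest in female replicates 1 and 2 and lowest in female replicate 3.

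After TMM scaling, both CKX6 unigenes lay higher in every female than in every male sample. On library totals alone, female replicate 3 lay below male replicate 1 in both. The first, contig_10271, had a scaled RPKM of 2.12, 1.89 and 1.202 in male samples. In the female samples it had 5.43, 7.98 and 5.04. Its log2 difference was -1.83 (SE 0.40), a fold of 3.55, with an edgeR adjusted p of 0.0857 that was the lowest of all 48 unigenes, and DESeq2 called it (adjusted p = 0.00946). The second, contig_24157, had 1.11, 0.800 and 0.812 in male and 4.98, 7.09 and 1.23 in female samples. Female replicate 3, with 13 reads, lay just above the male samples after scaling. The log2 difference was -2.32 (SE 0.60), with an edgeR adjusted p of 0.157 and 0.0120 without female replicate 3. The 2 unigenes matched different proteins of poplar.

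CKX7, which in Arabidopsis is a dehydrogenase of the cytosol, was the most expressed CKX unigene of male flowers. Unigene contig_5534 had a scaled RPKM of 17.2, 16.3 and 19.5 in male and 7.44, 5.42 and 11.2 in female samples. All male samples lay above all female samples, with a log2 difference of 1.15 (SE 0.34, a fold of 2.23). Its edgeR adjusted p was 0.217, and 0.0425 without female replicate 3. CKX3 (contig_31667) ran in the same direction, with 1.54, 1.63 and 1.34 in male and 0.831, 0.239 and 0.585 in female samples. Its log2 difference was 1.46 (SE 0.58, edgeR adjusted p = 0.341). CKX5 (contig_23841) lay between 2.92 and 3.82 in male and between 0.853 and 2.90 in female samples, so that female replicate 3 (2.90) nearly reached male replicate 3 (2.92). In Arabidopsis, CKX3 and CKX5 together limit the size of flower meristems.

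CKX1 (contig_6634) was the most expressed CKX unigene of female flowers and differed least. It had a scaled RPKM of 7.63, 9.13 and 9.77 in male and 11.4, 9.93 and 13.5 in female samples, a log2 difference of -0.39 (SE 0.28, edgeR adjusted p = 0.589). The remaining CKX5 unigene (contig_40050) had 22 reads and was not tested.

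The same data can be read as the share of all CKX reads that fell on each gene name. The CKX6 unigenes took 10.1% (95% exact binomial interval 8.06 to 12.4), 8.17% (6.85 to 9.65) and 6.01% (4.54 to 7.77) of the CKX reads in male samples. In female replicates 1, 2 and 3 they took 32.9% (31.5 to 34.4), 46.8% (45.5 to 48.2) and 16.2% (12.1 to 21.2), the last from 44 of 271 reads. These intervals cover counting error only. Every female share lay above every male share, although the interval of female replicate 3 (from 12.1%) met that of male replicate 1 (up to 12.4%). CKX7 took 46.2% ± 2.31 (SD, n = 3) of the CKX reads in male and 19.9% ± 6.94 (SD, n = 3) in female flowers. An exact two-sided permutation test gave p = 0.1 for the CKX6, CKX7 and CKX1 shares and for CKX3 with CKX5. This is the smallest p that 3 samples against 3 allow. The test returns it whenever the sexes do not overlap, and the shares were chosen after their values were seen. It therefore adds nothing to the order of the samples. The shares of a library are also parts of 1 whole, so these are not separate results. The female CKX6 share exceeded the male share by 23.9 percentage points, and by 16.5 without female replicate 2 and 31.8 without female replicate 3.

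**Figure D3:**
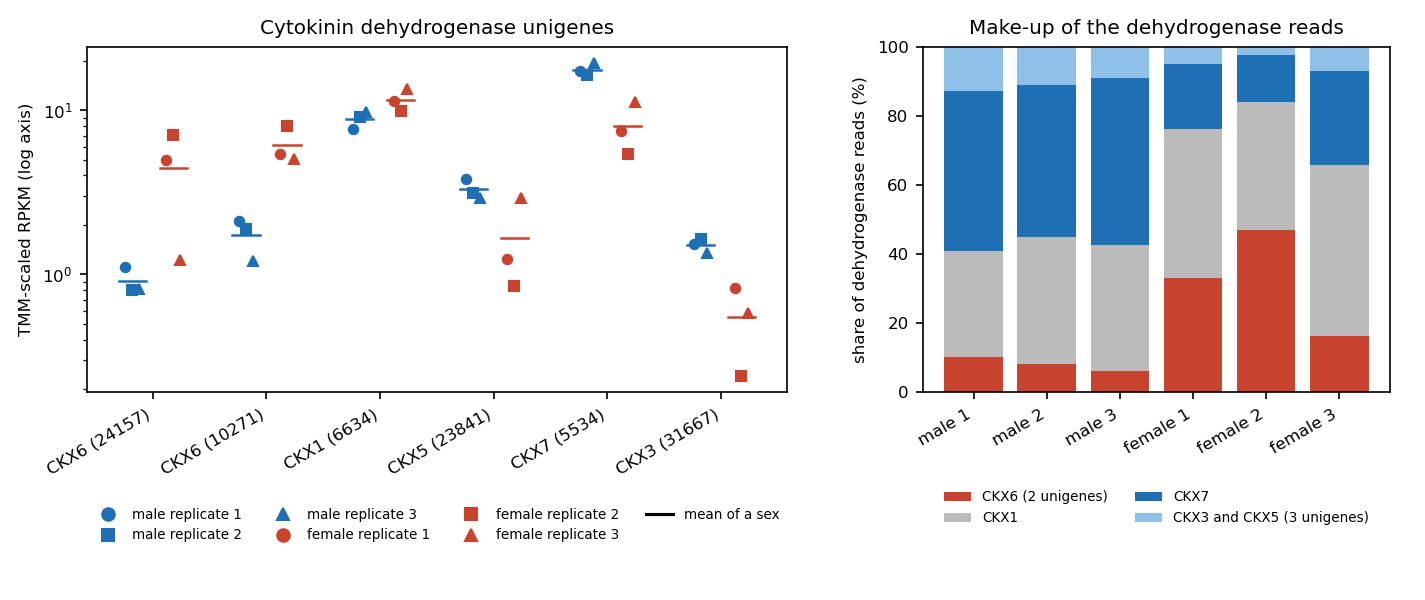
Left, scaled RPKM (log axis) of the 6 tested cytokinin dehydrogenase unigenes in each library, with circles, squares and triangles for replicates 1, 2 and 3 and lines for the mean of a sex; right, the share of all CKX reads (%) taken by each gene name in each library. At these scaled levels the sexes do not overlap in any of the 6. The CKX6 share, which does not depend on the scaling, is between 6.01% and 10.1% in male and between 16.2% and 46.8% in female samples.

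Zeatin can also be stored as a sugar conjugate, made by the zeatin O-glucosyltransferase and O-xylosyltransferase known from beans. The O-xylosyltransferase unigene contig_23394 had a scaled RPKM of 0.646 ± 0.0581 (SD, n = 3) in male and 1.23 ± 0.302 (SD, n = 3) in female flowers. Its log2 difference was -0.89 (SE 0.45, edgeR adjusted p = 0.445). The sexes did not overlap in it after TMM scaling, but on library totals alone female replicate 3 was the lowest of all. The O-glucosyltransferase unigene contig_26142 had 2.82 ± 1.30 in male and 1.76 ± 0.876 in female flowers, and its samples overlapped.

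The cytokinin receptors of Arabidopsis are AHK2, AHK3 and AHK4, and unigenes of these names held 98.1% ± 0.744 (SD, n = 3) of the histidine kinase reads in male and 97.8% ± 0.558 (SD, n = 3) in female flowers. AHK3 was the highest of them: contig_729 had a scaled RPKM of 9.89, 20.6 and 18.95 in male and 20.995, 25.8 and 15.7 in female samples. Male replicate 1 was the low sample, and without it the log2 difference turned from -0.34 (SE 0.39) to 0.06. AHK4 (contig_5449), which is needed for the vascular tissue of the Arabidopsis root, had 17.4, 9.70 and 11.5 in male and 9.94, 7.81 and 7.31 in female samples. Its sexes overlapped between male replicate 2 and female replicate 1, with a log2 difference of 0.62 (SE 0.33, edgeR adjusted p = 0.465). AHK2 (contig_11154) had 5.93 ± 1.29 (SD, n = 3) in male and 5.85 ± 1.69 (SD, n = 3) in female flowers. Its log2 difference of 0.01 (SE 0.33) became -0.45 when libraries were scaled by their totals alone. That scaling moved the median over all unigenes tested from -0.09 to -0.41.

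A short second AHK3 unigene (contig_7104, 591 bp) was the histidine kinase with the largest difference. It had a scaled RPKM of 0.148, 0.517 and 1.37 in male and 2.70, 3.01 and 2.78 in female samples. After TMM scaling the sexes did not overlap, but on library totals alone female replicate 3 lay below male replicate 3. The log2 difference was -2.07 (SE 0.73, edgeR adjusted p = 0.294). It held 244 reads, beside 19251 for the long unigene, and matched a protein of poplar, whereas the long one matched one of castor bean.

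Histidine kinases outside the receptors held few of the reads. AHK1, an osmosensor in Arabidopsis, had a scaled RPKM of 0.776 ± 0.365 (SD, n = 3) in male and 0.863 ± 0.369 (SD, n = 3) in female flowers (contig_25271), from 671 reads. The 3 CKI1 unigenes, named after a kinase that the Arabidopsis female gametophyte needs, had 13, 17 and 18 reads (contig_56122, contig_55609 and contig_41194). The first and second had no male read, but 11 of the 13 and 14 of the 17 reads came from female replicate 2. The female libraries were together deeper, with an effective total of 133132966 reads against 46714201 in the male ones. The 3 AHK5 unigenes matched the same castor bean protein and had 10, 10 and 28 reads, the last (contig_55562) with 19 in female replicate 1 and 9 in female replicate 2. None of these 6 was tested.

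Phosphotransfer proteins carry the phosphate from receptors to response regulators. Of 8 unigenes 4 were tested, with log2 differences from -1.73 to 0.97, and 1 of them had an unadjusted p under 0.05. The AHP1 unigene contig_15553 had a scaled RPKM of 6.69, 3.16 and 4.14 in male and 11.6, 16.7 and 18.1 in female samples. All female samples lay above the male ones, with a log2 difference of -1.73 (SE 0.40, a fold of 3.32). Its edgeR adjusted p was 0.110, and DESeq2 called it (adjusted p = 0.0239). The other AHP1 unigene (contig_5709) was the highest phosphotransfer unigene, with 15.98, 17.3 and 22.3 in male and 13.99, 14.8 and 45.0 in female samples. There female replicate 3 was far above the rest after scaling, from 225 reads. On library totals alone it was the lowest of the female samples. The log2 difference of -0.39 (SE 0.49) became 0.51 without that library. AHP5 (contig_6533) leaned the other way, with 15.9 ± 3.50 (SD, n = 3) in male and 10.1 ± 1.36 (SD, n = 3) in female flowers. Its log2 difference was 0.66 (SE 0.31, edgeR adjusted p = 0.416). The sexes did not overlap in it after TMM scaling, but they did on library totals alone. Among unigenes that did not pass the filter, the rice HP1-like contig_34906 had the most reads, 169, of which 14 were male and 155 female.

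Type-B response regulators are the transcription factors of the pathway. Of the 10 unigenes 8 were tested, with a median log2 difference of -0.17 (-1.37 to 0.77), and the samples of 6 overlapped between the sexes. After TMM scaling, the sum of the 10 was 119 ± 8.66 CPM (SD, n = 3) in the male and 112 ± 9.87 CPM in the female group. On library totals alone, this sum too was highest in female replicates 1 and 2 and lowest in female replicate 3. The ARR2 unigene contig_2482 had a scaled RPKM of 16.9 ± 3.52 (SD, n = 3) in male and 15.01 ± 1.196 (SD, n = 3) in female flowers, and the ARR2 unigene contig_3404 had 8.87 ± 1.18 and 8.32 ± 1.98. Their log2 differences of 0.17 and 0.09 turned to -0.14 and -0.37 when libraries were scaled by totals alone, a scaling that moved the median of all unigenes from -0.09 to -0.41. ARR12 (contig_18987), one of the main type-B regulators of Arabidopsis, had 3.75 ± 0.589 (SD, n = 3) in male and 4.41 ± 0.510 (SD, n = 3) in female flowers.

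After TMM scaling, a type-B unigene lay outside the overlap in each direction. On library totals alone, the sexes overlapped in both. A further ARR2 unigene, contig_9697, had a scaled RPKM of 1.79, 1.08 and 1.06 in male and 5.22, 2.55 and 2.21 in female samples, with a log2 difference of -1.37 (SE 0.50, edgeR adjusted p = 0.304). ARR18 (contig_20109) had 7.53, 5.74 and 5.33 in male and 4.00, 3.96 and 2.83 in female samples, with a log2 difference of 0.77 (SE 0.31, edgeR adjusted p = 0.348).

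Type-A response regulators are induced by cytokinin within minutes in Arabidopsis and are used there as a readout of the response. Of the 11 unigenes 10 were tested, with 1 at an unadjusted p under 0.05 in each direction and the samples of 8 overlapping. The median log2 difference was -0.43 (-3.41 to 2.94). Their summed level was 151, 36.8 and 42.9 CPM in male and 88.8, 75.0 and 72.1 CPM in female samples. After TMM scaling, male replicate 1 was thus the highest and the other male samples the lowest. On library totals alone, female replicate 1 was the highest and female replicate 3 the lowest. ARR8 (contig_4786) had the highest level of all 67 unigenes, with a scaled RPKM of 34.7, 18.1 and 21.5 in male and 29.4, 37.0 and 45.1 in female samples. Its log2 difference was -0.59 (SE 0.35, edgeR adjusted p = 0.514).

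The 2 type-A unigenes with the largest differences were low. The ARR9 unigene contig_14647 had a scaled RPKM of 0.396, 0.0991 and 0.0736 in male samples, from 10, 5 and 2 reads. In the female samples it had 1.99, 2.91 and 0.747, from 245, 472 and 6 reads. After TMM scaling the female samples all lay above the male ones, but on library totals alone female replicate 3 lay below male replicate 1. The log2 difference of -3.41 (SE 0.80, a fold of 10.7) was the largest of the 48 unigenes with all libraries kept. Leaving out male replicate 1 gave -4.29, and when female replicate 1 was left out its -3.39 was exceeded in size by ARR8 contig_38352 and the isopentenyltransferase contig_42437. Its edgeR adjusted p was 0.112, 0.0492 without female replicate 3, and 0.00210 with DESeq2. A short ARR8 unigene (contig_38352, 389 bp) went the other way, with 11, 14 and 10 reads in male and 10, 3 and 0 in female samples. Its log2 difference was 2.94 (SE 0.83, edgeR adjusted p = 0.194), and 4.24 without female replicate 1. A second ARR9 unigene (contig_22357) had 6.26 ± 3.65 (SD, n = 3) in male and 3.19 ± 0.696 (SD, n = 3) in female flowers.

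In several type-A unigenes the replicates differed more than the sexes. ARR5 (contig_24531) had a scaled RPKM of 11.1, 1.13 and 0.210 in male and 14.9, 2.46 and 2.13 in female samples. The second ARR5 unigene (contig_25166) had 13.7, 2.05 and 1.45 in male and 19.9, 4.07 and 2.45 in female samples. ARR15 (contig_9008) had 18.1, 2.47 and 0.191 in male and 19.6, 2.75 and 3.88 in female samples. In each of these 3 the replicate 1 of both sexes was the highest, and the log2 differences between the sexes ran from -0.72 to -0.41 with SEs from 1.03 to 1.26. After TMM scaling, the female sample was nevertheless the higher one in every same-numbered pair of all 3. On library totals alone, the male sample was the higher one in replicate 3 of ARR5 contig_25166, with 8 male and 4 female reads. In the fit blocked on replicate number, the log2 difference was -1.22 for ARR5 contig_24531 (edgeR adjusted p = 0.402), -0.76 for ARR5 contig_25166 (0.488) and -0.80 for ARR15 (0.651), and none was called. The second ARR5 and the ARR15 unigene match a poplar locus of the same name and may not be separate genes.

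The level in replicate 1 was 16.5 times the mean of replicates 2 and 3 in male and 6.47 times in female flowers for ARR5 contig_24531. The ratios were 7.80 and 6.12 for ARR5 contig_25166 and 13.6 and 5.91 for ARR15. These ratios were worked out because the pattern had been seen, and they were not tested. Replicate 1 was the highest in both sexes in 5 of the 10 tested type-A unigenes and in 15 of all 48, where 14.7% of all unigenes tested had that order. Green-tissue markers were high in male replicate 1 (4030 CPM) and lowest in female replicate 1 (822 CPM). The labels give no batch or date for the replicate numbers.

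**Figure D4:**
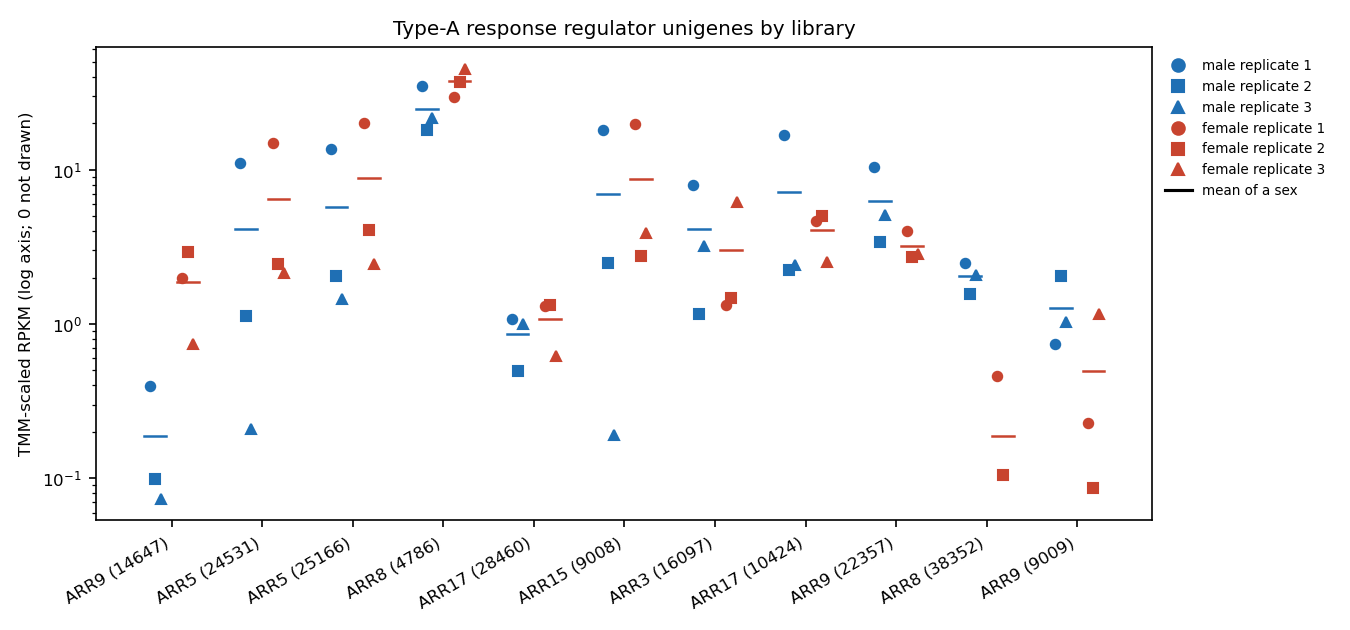
Scaled RPKM (log axis) of the 11 type-A response regulator unigenes in each library; circles, squares and triangles are replicates 1, 2 and 3, blue male and red female, lines the mean of a sex, and the value of 0 (ARR8 contig_38352, female replicate 3) is not drawn. In the 2 ARR5 unigenes and ARR15 the circles of both sexes lie above all squares and triangles, with 18.1 and 19.6 for ARR15 against at most 3.88 in the other libraries.

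In both ARR17 unigenes the samples of the sexes overlapped. The NR match of the longer one (contig_10424, 4344 bp) is a conserved hypothetical protein of castor bean. This unigene had a scaled RPKM of 16.8, 2.22 and 2.41 in male and 4.61, 4.99 and 2.52 in female samples. Male replicate 1 decided its direction: the log2 difference was 0.81 (SE 0.78, edgeR adjusted p = 0.692), and -0.68 without that library. The shorter one (contig_28460), whose NR match is a protein of poplar, had 0.860 ± 0.321 (SD, n = 3) in male and 1.08 ± 0.403 (SD, n = 3) in female flowers (log2 difference -0.46, SE 0.58, edgeR adjusted p = 0.770). The only type-C unigene, ARR22-like contig_45273, had 4, 0 and 4 male and 4, 7 and 0 female reads and was not tested.

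The rest of the pathway, 29 unigenes for transport, conjugation and nucleotide salvage and for the cytokinin response factors, had 24 tested members and a median log2 difference of 0.01. Of these, 2 were called higher in male flowers (1.56% of all unigenes tested) and none higher in female flowers (0.143%). ENT8 (contig_18014), a nucleoside transporter through which cytokinin ribosides can enter cells in Arabidopsis, had a scaled RPKM of 16.9, 14.01 and 13.5 in male and 5.21, 3.88 and 3.36 in female samples. It was higher in male flowers by 1.82 on the log2 scale (SE 0.31, a fold of 3.53, edgeR adjusted p = 0.0277), and was still called when the replicate number entered as a block (0.0296). UGT76C1 (contig_37330), named after an Arabidopsis enzyme that glucosylates cytokinins at a ring nitrogen, had 6.04, 1.85 and 3.44 in male and 0.160, 0.258 and 0 in female samples. Its log2 difference was 4.27 (SE 0.75, edgeR adjusted p = 0.0319), and it was not called with the block (0.0668). With a library left out, the edgeR adjusted p of ENT8 ran from 0.0288 to 0.189 and that of UGT76C1 from 0.0330 to 0.180. Neither was called without male replicate 3, female replicate 1 or female replicate 2. Nor was ENT8 called without male replicate 2 (0.101), or UGT76C1 without male replicate 1 (0.0595). Over all alternatives the adjusted p of ENT8 ran from 0.000217 to 0.99998 and that of UGT76C1 from 3.8e-06 to 0.677.

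The purine permease PUP21 (contig_1977), a relative of the carriers that move cytokinin bases, had a scaled RPKM of 0.267, 0.267 and 0.0826 in male and 2.98, 2.72 and 0.838 in female samples. After TMM scaling all female samples lay above the male ones, but on library totals alone female replicate 3 lay below male replicate 2. The log2 difference of PUP21 was -3.42 (SE 0.68). Its edgeR adjusted p was 0.0607, and it passed with the replicate number as a block (0.0252), with a range over all alternatives from 0.000351 to 0.99998. The ABC transporter ABCG14 (contig_5769), which exports cytokinins from the root in Arabidopsis, had 23.8 ± 12.6 (SD, n = 3) in male and 17.2 ± 6.94 (SD, n = 3) in female flowers, with overlap. Adenosine kinase (ADK2, contig_3251), which turns cytokinin ribosides back into nucleotides, was the most expressed, with 295, 241 and 279 in male and 156, 83.6 and 201 in female samples. Its samples did not overlap after TMM scaling but did on library totals alone, with a log2 difference of 0.89 (SE 0.47, edgeR adjusted p = 0.466).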

How the data were processed

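Male and female flower buds at stage 7 (3 libraries each) were sequenced on an Illumina HiSeq instrument. Per the methods of the authors, adapters and reads of low quality were discarded and the rest assembled without a genome, using CLC Genomics Workbench and CAP3. The authors deposited, for each unigene, its read count in every library, the RPKM made from it, its length and its best SwissProt and NR matches. For the mapping and counting, no tool is given in the sources used here. RPKM recomputed from the deposited counts and lengths differed from the deposited RPKM by at most 4.73e-08 of the value. The 7 lines of the table that held no unigene were left out, and column names gave the sex and number of each library.

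Library totals on unigenes were 14260169, 16849489 and 14099287 reads in male replicates 1, 2 and 3 and 32719757, 40385019 and 11467832 reads in female replicates 1, 2 and 3. Counts were fitted with edgeR 4.0.16 (glmQLFit, glmQLFTest, filterByExpr, TMM scaling, prior count 0.125) in R 4.3.3, with Benjamini-Hochberg adjustment over all unigenes tested; the biological coefficient of variation was 51%. TMM factors ranged from 0.319 (female replicate 3) to 1.86 (female replicate 2). The script was tested on simulated data. Alternatives were median-of-ratios scaling, library totals, no filter, DESeq2 1.42.0, limma 3.58.1 on log2(RPKM + 1) and log2(RPKM + 0.1), the replicate number as a block, and each library left out. Shares were compared with an exact permutation test (scipy 1.17.1). The replicates are separate pools of flowers, and p-values measure the spread between these pools.

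Deviations of same-numbered male and female libraries from their group means had r = 0.194, 0.125 and 0.371 for numbers 1, 2 and 3. Other pairs ran from -0.315 to 0.159, so number 2 lay within their range. Both sexes were taken from the same plant, but the labels name no tree per number. Whether the numbers pair the samples is therefore not known. The values given are from the fit without a replicate term unless the block is named, and the permutation test is unpaired.

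The members and gene lists were chosen with earlier results of these data known. Named were the unigenes with an unadjusted p under 0.05, the 3 with the highest mean CPM in each role, the 5 with the largest differences and the untested one with the most reads, 35 in all. The hydroxylases, CKX5, the CKX shares, ARR5 contig_25166, ARR15, the shorter ARR17 and ARR9 contig_22357 were chosen after their values were seen. So were the second AHK4, CKI1, AHK5 and ARR22 unigenes and the other pathway genes singled out. No sequences were used here.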

Additional observations from a re-analysis of the deposited data

How the results depend on the processing

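The number of cytokinin unigenes called moved from 0 to 5 with DESeq2 and ran from 0 to 3 with a library left out. The count at an unadjusted p under 0.05 (13) was 6 with library totals and 3 and 5 with limma at pseudocounts of 1 and 0.1. The median log2 difference (-0.22) was -0.085 without a filter, -0.47 with library totals, -0.13 with DESeq2 and from -0.19 to 0.032 with a library left out. Library totals moved the median of all unigenes from -0.09 to -0.41. The other pathway genes called (2) numbered 0 with library totals and with limma at both pseudocounts, and from 0 to 3 with a library left out. Over all unigenes the 499 calls became 802 without a filter, 1755 with DESeq2, 289 and 369 with limma and from 269 to 970 with a library left out. With the replicate number as a block, 0 cytokinin unigenes were called, 14 had an unadjusted p under 0.05 and the median was -0.21, and it changed no call beside those of UGT76C1 and PUP21. The CKX6 share difference of 23.9 percentage points was 25 from RPKM and from 16.5 to 31.8 with a library left out. The alternatives for the shares and the other pathway genes were chosen after seeing the data.

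Of 403 log2 differences recomputed for 31 named unigenes, 379 kept their direction and side of the threshold, 8 newly passed it and 16 changed sign. The cause was not tested. With library totals, LOGL10 (contig_7790) had -0.29, AHK2 (contig_11154) -0.45, ARR2 contig_3404 -0.37 and ARR2 contig_2482 -0.14. With limma, LOGL10 had -0.068 and -0.027 at pseudocounts of 1 and 0.1 and AHK2 -0.088 at a pseudocount of 1. With a library left out, the log2 difference ran from -0.56 to 0.21 for LOG8 contig_6337, from -0.077 to 0.22 for LOGL10, from -0.44 to 0.059 for AHK3 contig_729, from -0.070 to 0.28 for AHK2, from -0.68 to 0.51 for AHP1 contig_5709, from -3.08 to 0.81 for ARR5 contig_24531 and from -0.68 to 1.32 for ARR17 contig_10424. Among unigenes that kept their direction, the range was -2.82 to -1.50 for AHK3 contig_7104 and 1.02 to 2.07 for CKX3. Female replicate 3 had the lowest effective total, and LOG8 contig_17555 and ARR9 contig_14647 had 5 and 6 reads there.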
